A study of Mus musculus with 16 samples.

Results

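The 10 genes described here make, conjugate, carry or control bile acids in the liver, and were taken by gene name from the deposited table of 57010 genes. They are Cyp7a1, Cyp7b1, Cyp8b1 and Cyp27a1 (synthesis), Baat (conjugation), Slc10a1 and Slco1b2 (uptake from blood), Abcb11 and Abcc2 (export into bile) and Nr0b2 (a repressor). All 10 reached a mean of 1 TPM (a transcript level scaled to transcript length and to the library's total) and were among the 11766 genes tested. Liver RNA was sequenced from 16 male wild-type C57BL/6J mice, aged 8 to 12 weeks by the study's methods, an age that its scheme places at the start of the diet, with 4 mice in each of 4 groups. The Cd group received CdCl2 at 1.25 mg/kg by intraperitoneal injection each day over the final 7 days, the Se group ate selenomethionine (SeMet) at 2 ppm for 3 months, and the Cd+Se group received both. The control group received neither, and the diet and injection it had in their place are not given in the sources used here. The mice were numbered 27 to 30 (control), 1, 2, 5 and 6 (Cd), 13 to 16 (Cd+Se) and 39, 40, 41 and 44 (Se).

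Bile acids are made from cholesterol in hepatocytes, either by the classic route, which Cyp7a1 opens and limits, or by the alternative route, which Cyp27a1 opens and Cyp7b1 continues. They are joined to an amino acid such as taurine, pumped into the bile canaliculus, reabsorbed in the gut and taken up again from portal blood. Most of the pool is thus recycled. When bile acids build up, their receptor FXR (Nr1h4) is known to induce Nr0b2, whose product SHP represses Cyp7a1, and to induce the export pump Abcb11.

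A TPM table does not carry the number of reads, which is therefore unknown, and the precision of each value rests on the 4 mice per group. In each library the 10 highest genes took 26.1% to 32.4% of the TPM. The labels of Cd injection were checked with Mt1, a metallothionein gene induced by Cd. Its level was 116 ± 73.3 TPM in control and 4066 ± 707 TPM in Cd mice (SD, n = 4). It was 4880 ± 1274 TPM in Cd+Se and 261 ± 158 TPM in Se mice. Mt1 does not check the labels of the diet. The 8 hepatocyte markers were detected in every group, and their summed level spanned 55722 to 77361 TPM in control and 36428 to 63122 TPM in Cd mice. Most of that sum was Alb, at 52073 ± 8175 TPM in control and 33212 ± 9696 TPM in Cd mice (SD, n = 4). The sum therefore mainly follows 1 gene, and 4 of the 8 markers had a log2 fold change above 0 in Cd against control. In bulk liver, fewer cells of a type and less RNA per cell cannot be told apart.

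By the mouse annotation GENCODE M21 (build GRCm38), Cyp7a1 lies at chr4:6265612-6275633, Cyp7b1 at chr3:18071950-18243338, Cyp8b1 at chr9:121914356-121916305 and Cyp27a1 at chr1:74713574-74737892. Baat lies at chr4:49489422-49506557, Slc10a1 at chr12:80953183-80968705, Slco1b2 at chr6:141629518-141686646, Abcb11 at chr2:69238282-69342616, Abcc2 at chr19:43782192-43840740 and Nr0b2 at chr4:133553376-133556536. Windows of 300 bases around the start site (250 before and 50 after) from RefSeq, build GRCm38.p6, were matched for 7 of the 10 genes, namely Cyp8b1, Cyp27a1, Slc10a1, Slco1b2, Abcb11, Abcc2 and Nr0b2.

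The windows of Abcb11, Slco1b2 and Nr0b2 are shown because these 3 genes differed between Cd+Se and Cd mice and because the windows hold letters of the kind that nuclear receptors or basal factors bind. They are printed 5′ to 3′ on the gene's strand, with matches to the motifs searched in capitals. Abcb11 spans chr2:69342567-69342866 on the minus strand, Slco1b2 chr6:141629268-141629567 on the plus strand and Nr0b2 chr4:133553126-133553425 on the plus strand.
Abcb11: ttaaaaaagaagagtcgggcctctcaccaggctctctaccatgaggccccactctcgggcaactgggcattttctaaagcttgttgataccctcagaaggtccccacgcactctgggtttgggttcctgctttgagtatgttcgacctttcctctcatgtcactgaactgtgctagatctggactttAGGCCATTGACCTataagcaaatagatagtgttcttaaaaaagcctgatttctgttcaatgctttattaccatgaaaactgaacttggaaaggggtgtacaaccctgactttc
Slco1b2: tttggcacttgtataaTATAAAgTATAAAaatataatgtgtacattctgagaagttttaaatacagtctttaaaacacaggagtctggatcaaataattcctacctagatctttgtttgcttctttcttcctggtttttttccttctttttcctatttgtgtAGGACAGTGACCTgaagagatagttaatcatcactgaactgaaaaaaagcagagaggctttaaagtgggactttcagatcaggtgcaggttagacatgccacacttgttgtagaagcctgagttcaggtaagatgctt
Nr0b2: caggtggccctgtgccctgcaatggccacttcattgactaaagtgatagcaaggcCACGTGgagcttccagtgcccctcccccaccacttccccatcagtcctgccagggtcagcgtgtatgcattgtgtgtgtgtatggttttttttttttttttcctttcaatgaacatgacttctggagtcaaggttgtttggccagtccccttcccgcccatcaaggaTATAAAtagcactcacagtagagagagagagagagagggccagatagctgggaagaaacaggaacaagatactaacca
In the Abcb11 window the capitals mark a match, with 1 mismatch, to an inverted repeat of the nuclear receptor half-site, AGGTCANTGACCT, the form of site that FXR is known to bind. It starts 63 bases before the start site. The Slco1b2 window holds another such match, also with 1 mismatch, 88 bases before the start site, and 2 copies of TATAAA farther upstream. Of 32851 mouse windows of the same length searched on both strands, 27 (0.0822%) held this repeat with at most 1 mismatch and 3 (0.00913%) held it exactly. Each repeat contains the half-site AGGTCA on the other strand, a motif that 16.3% of all windows held. Windows of Abcc2 and Slc10a1, not shown, hold the half-site 49 and 87 bases before the start site. Neither of those genes passed in Cd+Se against Cd. The Nr0b2 window holds neither the half-site nor the repeat. Of the genes with the repeat, Abcb11 was lower and Slco1b2 higher in Cd+Se than in Cd mice. The capitals of Nr0b2 mark CACGTG, the core of an E-box, which 7.15% of all windows held, and TATAAA, 28 bases before the start site, which 13.6% held. These matches describe the letters of the windows, and binding was not measured.

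Cyp7a1 fell in Cd mice and stood higher in Cd+Se than in Cd mice, the largest changes among the 10 genes in both comparisons. Its level was 97.3, 92.8, 135 and 70.9 TPM in control mice 27 to 30. It was 14.1, 29.4, 16.7 and 8.37 TPM in Cd mice 1, 2, 5 and 6. In Cd+Se mice 13 to 16 it was 41.1, 63.1, 49.9 and 41.4 TPM. The Se mice 39, 40, 41 and 44 held 102, 214, 162 and 192 TPM. Every Cd mouse lay below every mouse of the other 3 groups, and every Cd+Se mouse lay between the Cd and the control mice. The group means were 98.9 ± 26.4 TPM in control, 17.2 ± 8.89 TPM in Cd, 48.8 ± 10.3 TPM in Cd+Se and 167 ± 48.6 TPM in Se (SD, n = 4).

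**Figure D1:**
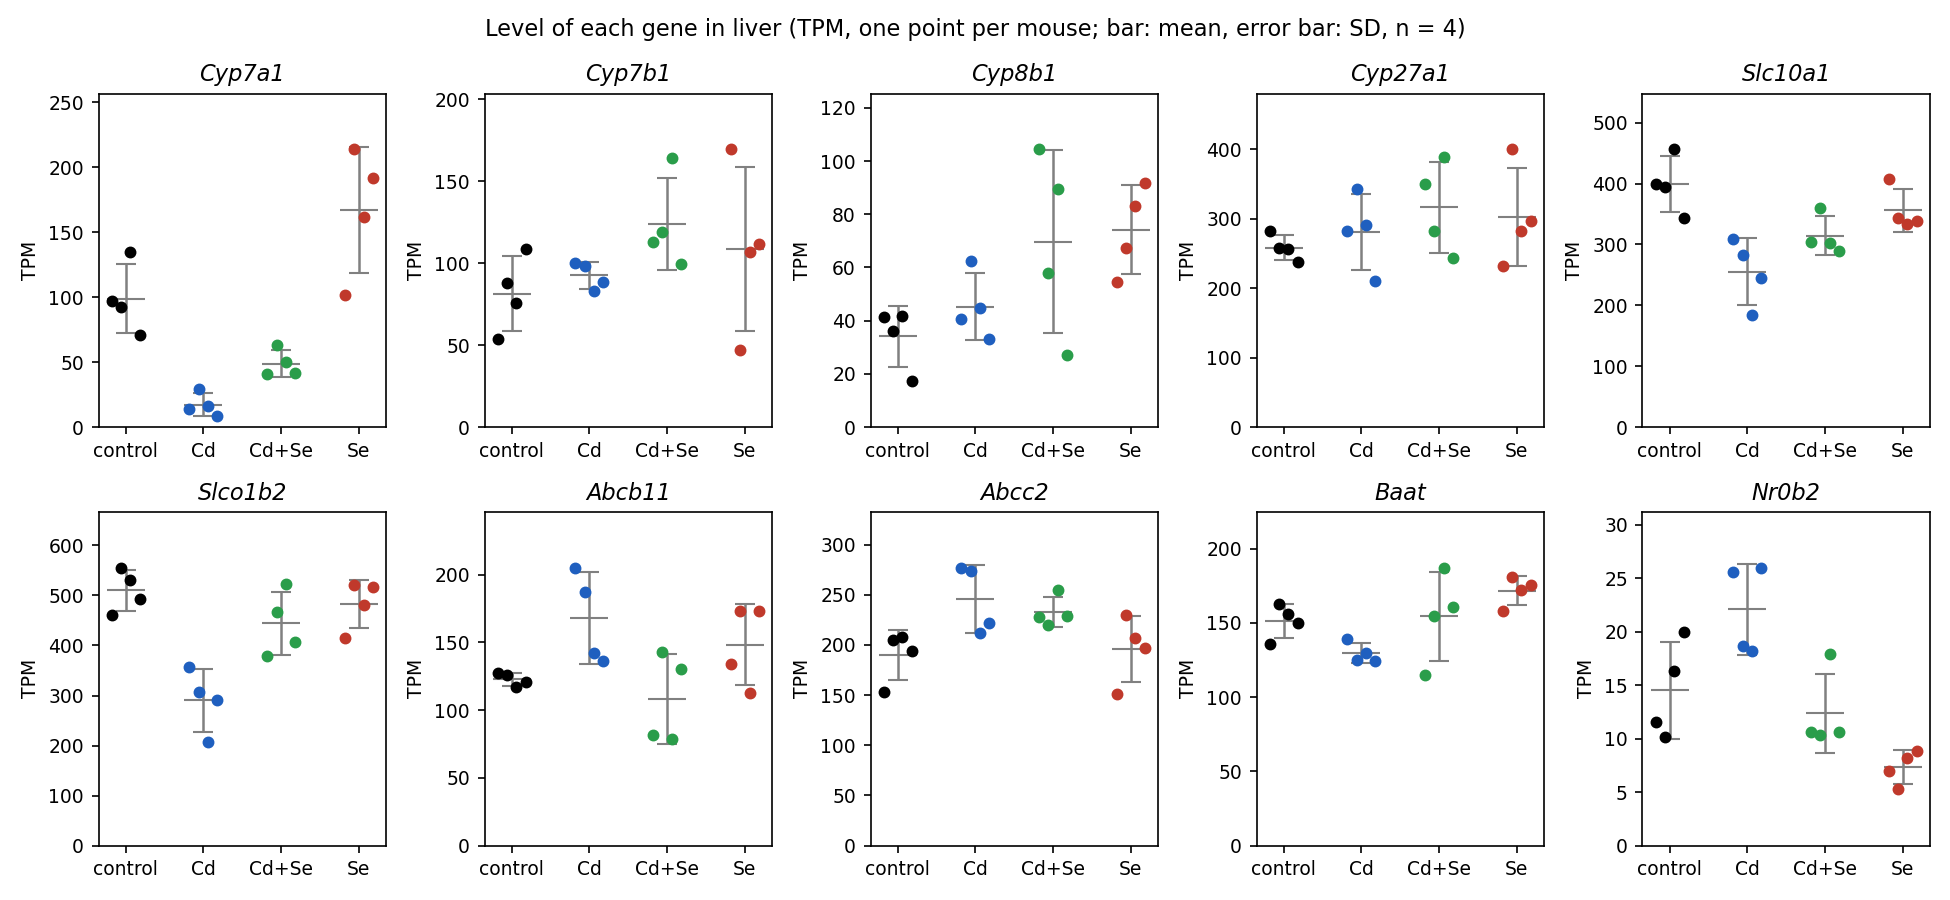
TPM of each of the 10 genes (y axis, linear from 0) by treatment group (x axis). Each point is a mouse, the bar is the mean and the error bar the SD (n = 4). Cyp7a1 in the Cd mice sits between 8.37 and 29.4 TPM, under all other mice, while Cyp7b1 and Cyp27a1 overlap between control and Cd.

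The control mean of Cyp7a1 was 5.77-fold the Cd mean. On the log2(TPM + 1) scale, on which single genes were tested with limma in 1 model over the 16 libraries, Cyp7a1 fell by 2.55 (SE 0.30, limma adjusted p = 9.3e-05) in Cd against control. This was the 11th most negative change of the 11766 genes tested. Against Cd mice, Cd+Se mice showed a log2 fold change of 1.56 (SE 0.30, limma adjusted p = 0.00722), with a ratio of means of 2.85, the 27th most positive of all genes. Within the SeMet diet, Cd+Se mice stood below Se mice by a log2 fold change of -1.73 (SE 0.30, limma adjusted p = 0.0127), a call that was lost without Cd+Se mouse 13 or Se mouse 44 (highest limma adjusted p = 0.0549). Cd+Se against control gave -0.99 (SE 0.30, limma adjusted p = 0.213), although the groups did not overlap, and Se against control gave 0.74 (SE 0.30, limma adjusted p = 1).

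Across the 10 genes, 4 passed the threshold of an adjusted p of 0.05 in Cd against control, where 30.8% of all genes passed. Cyp7a1, Slco1b2 and Slc10a1 fell and Nr0b2 rose. The groups did not overlap for 5 of the 10, against 34.2% of all genes. The median log2 fold change was 0.16 over the 10 genes and -0.17 over all genes tested. Relative to that shift of all genes, with each library centred on its median, 6 of the 10 passed (34.5% of all genes), with Abcb11 and Abcc2 added as higher, so that the split went from 1 higher and 3 lower to 3 higher and 3 lower.

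Cd+Se mice differed from Cd mice in 4 of the 10 genes, where 15.9% of all genes passed, with Cyp7a1 and Slco1b2 higher and Abcb11 and Nr0b2 lower. The groups did not overlap for 3 of the 10, against 19.2% of all genes. The median was 0.28 over the 10 genes and 0.17 over all genes. These 4 calls rest on the spread shared by all 4 groups: with only the 8 Cd and Cd+Se libraries in the model, 66 genes and 0 of the 10 passed. The comparisons share the Cd mice, so a low or high Cd library moves both.

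Between Cd+Se and control mice 0 of the 10 passed, with 0.484% of all genes called. An unadjusted limma p under 0.05 was found there for 4 of the 10 (Cyp7a1, Cyp8b1, Slc10a1 and Abcc2) and for 10.9% of all genes. The SeMet diet alone changed 0 of the 10 and 0% of all genes by this test, while 454 genes (3.86%) and 3 of the 10 had an unadjusted limma p under 0.05. Between Cd+Se and Se mice only Cyp7a1 of the 10 passed, with 0.714% of all genes called. The interaction, which asks whether the change with Cd differed between the diets, called 0 of the 10 and 1.04% of all genes, and 3 of the 10 and 21.3% of all genes had an unadjusted limma p under 0.05.

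**Figure D2:**
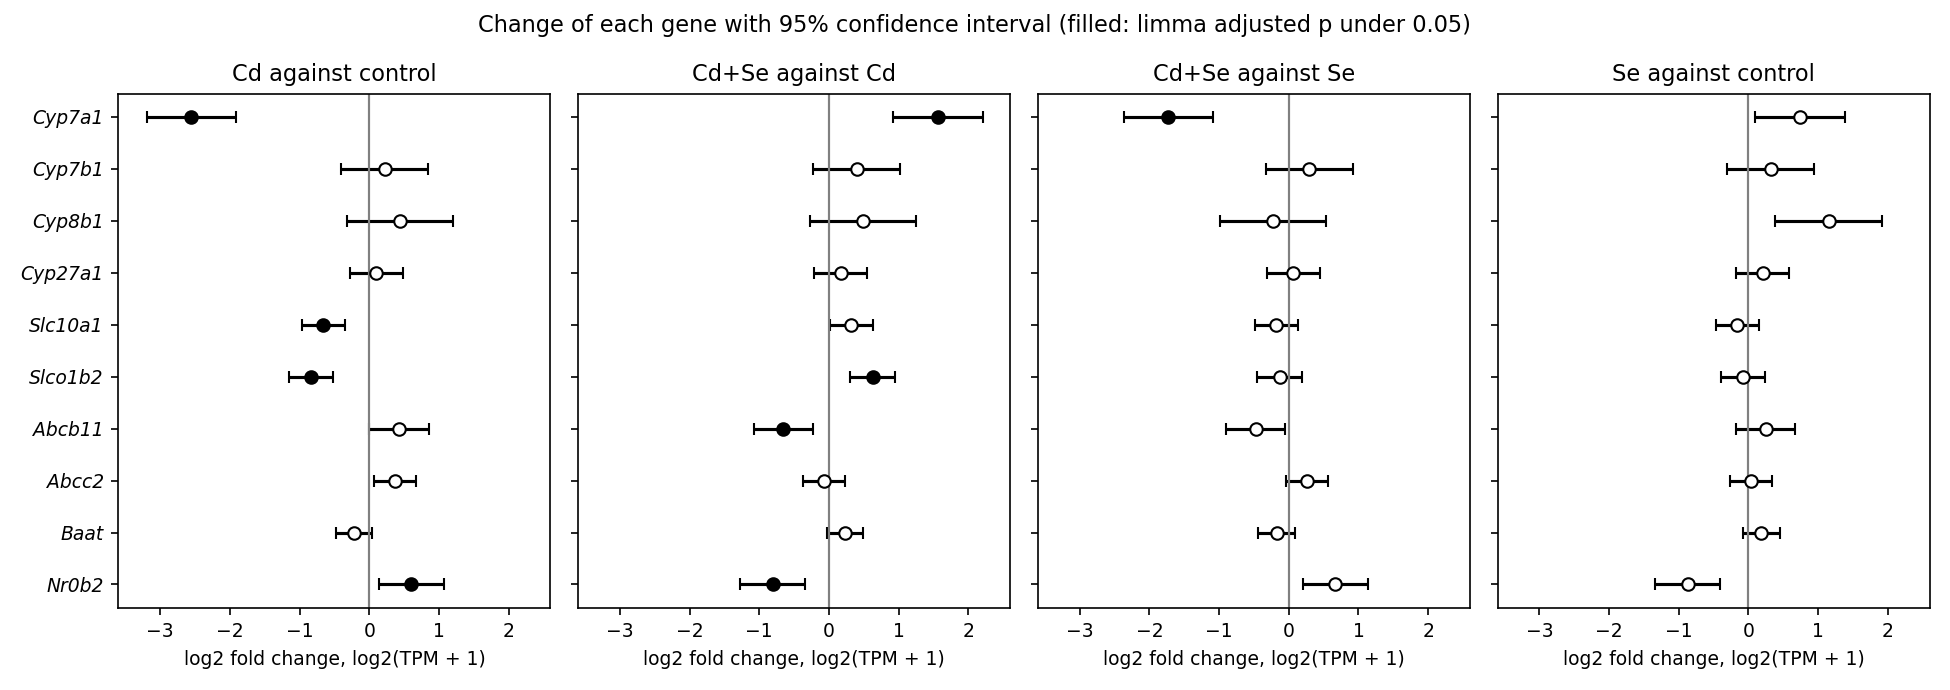
Log2 fold change on the log2(TPM + 1) scale (x axis) of each of the 10 genes (y axis) in 4 comparisons, one per panel, with 95% confidence intervals from limma. Filled points passed a limma adjusted p of 0.05: 4 in Cd against control, 4 in Cd+Se against Cd, 1 in Cd+Se against Se and 0 in Se against control.

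The other 3 synthesis enzymes did not pass the test in Cd against control. Cyp7b1, the oxysterol hydroxylase of the alternative route, spanned 53.8 to 108 TPM in control, 83.3 to 100 TPM in Cd, 99.3 to 164 TPM in Cd+Se and 47.0 to 170 TPM in Se mice. Against control, Cd mice differed by 0.22 on the log2 scale, with a 95% interval from -0.40 to 0.85 (limma adjusted p = 0.598). Cyp27a1, the mitochondrial sterol hydroxylase, spanned 238 to 282 TPM in control, 210 to 342 TPM in Cd, 243 to 389 TPM in Cd+Se and 231 to 400 TPM in Se mice. For Cyp27a1 this difference was 0.10, with an interval from -0.28 to 0.49 (limma adjusted p = 0.696). For both genes the Cd mice overlapped with the control mice. In Cd+Se against Cd mice the log2 fold changes were 0.40 for Cyp7b1 (limma adjusted p = 0.367) and 0.17 for Cyp27a1 (limma adjusted p = 0.553).

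Cyp8b1, the hydroxylase that directs synthesis toward cholic acid, was the most variable of the 4 enzymes in Cd+Se mice. It was 41.3, 36.0, 41.8 and 17.4 TPM in control mice 27 to 30 and 40.7, 62.5, 44.9 and 33.0 TPM in Cd mice 1, 2, 5 and 6. In Cd+Se mice 13 to 16 it was 104, 57.9, 89.6 and 26.9 TPM, and in Se mice 39, 40, 41 and 44 it was 54.4, 67.3, 83.2 and 91.9 TPM. All Se mice lay above all control mice, while the Cd and Cd+Se mice overlapped with control. Se against control gave a log2 fold change of 1.15 (SE 0.36, limma adjusted p = 1), the 38th most positive of all genes. Cd against control gave 0.44 (SE 0.36, limma adjusted p = 0.375), and Cd+Se against Cd gave 0.48 (SE 0.36, limma adjusted p = 0.367).

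Apart from the 1 TPM added to each level, a ratio of 2 genes within a library does not depend on how libraries are scaled, and 3 such ratios of (TPM + 1) were compared over 5 pairs of groups, using exact permutation (two-sided), which cannot go below p = 0.0286 for 4 mice against 4. Cyp7a1 over Cyp7b1, the classic over the alternative route, had a log2 ratio of 0.28 ± 0.69 in control, -2.49 ± 0.66 in Cd, -1.32 ± 0.33 in Cd+Se and 0.70 ± 1.18 in Se mice (SD, n = 4). Cd mice lay below control mice by 2.77 and Cd+Se mice above Cd mice by 1.17, with no overlap in either case (exact permutation p = 0.0286, adjusted over 15 tests to 0.0476). Cd+Se mice remained below control mice, by a difference of -1.61, and below Se mice, by -2.02, with the same exact p. The ratio did not pass in Se against control, with a difference of 0.42 (exact permutation p = 0.657). Over all 3 ratios, most tests that reached the lowest possible p hold Cyp7a1, so in part they repeat its change. Their adjusted value depends on how many of the 15 tests reached it.

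Cyp8b1 over Cyp7a1 changed sides between the groups. Its ratio was 0.255 to 0.43 in control mice, 2.09 to 3.63 in Cd mice, 0.659 to 2.51 in Cd+Se mice and 0.318 to 0.538 in Se mice. Cyp7a1 was thus the more abundant transcript in all control and Se mice and Cyp8b1 in all Cd mice, while the 4 Cd+Se mice fell on both sides of equal levels. The log2 ratio was higher by 2.99 in Cd than in control and by 1.91 in Cd+Se than in control (each exact permutation p = 0.0286, adjusted 0.0476). Between Cd+Se and Cd the difference of -1.08 did not pass (exact permutation p = 0.0571, adjusted 0.0857).

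**Figure D3:**
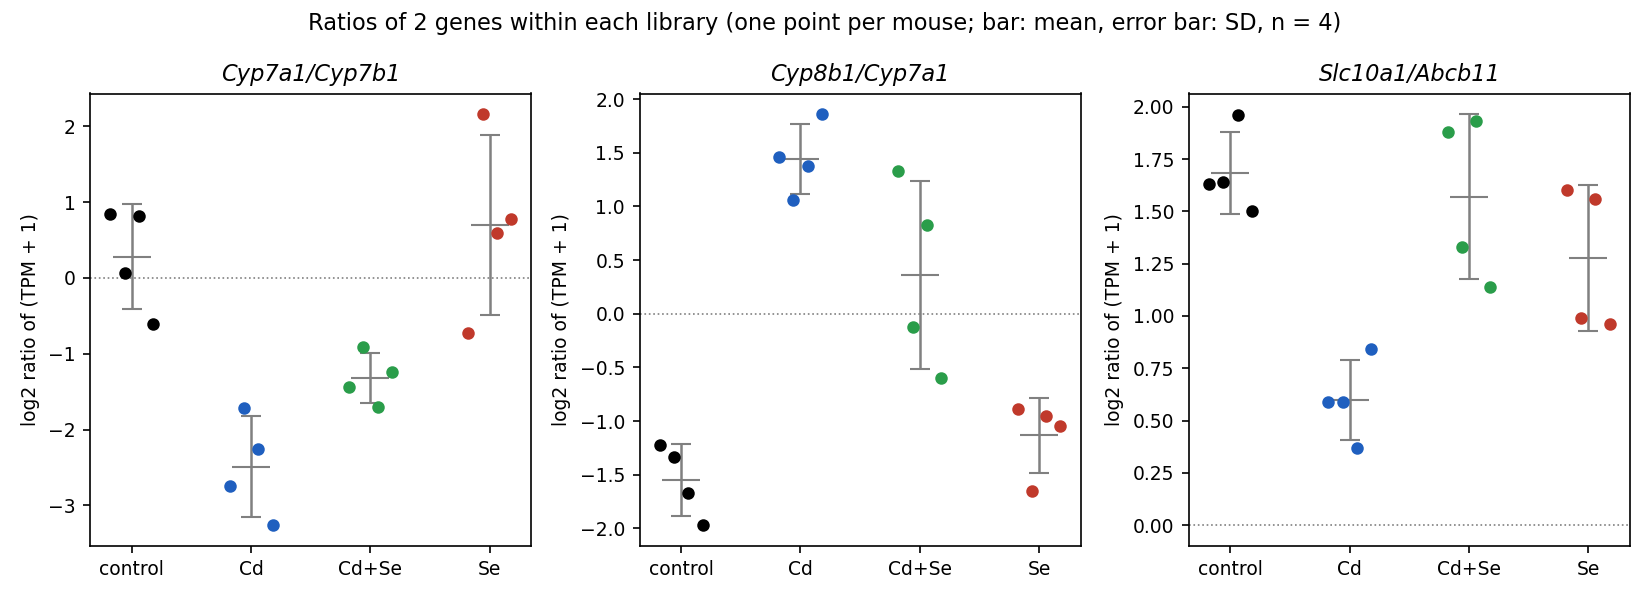
Log2 ratio of (TPM + 1) within each library (y axis) for 3 pairs of genes, by group (x axis). Each point is a mouse, the bar is the mean and the error bar the SD (n = 4). Cyp8b1 over Cyp7a1 lies above 0 in all 4 Cd mice and below 0 in all control and Se mice.

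Baat, the enzyme that conjugates bile acids, did not pass the test in any of the 6 comparisons. It spanned 136 to 163 TPM in control, 125 to 139 TPM in Cd, 115 to 187 TPM in Cd+Se and 158 to 181 TPM in Se mice. Cd mice differed from control mice by -0.22 on the log2 scale, with a 95% interval from -0.48 to 0.04 (limma adjusted p = 0.194), close to the median of all genes, and the difference was 0.0015 after centring. Cd+Se mice differed from Cd mice by 0.23 (SE 0.12, limma adjusted p = 0.205).

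Both uptake carriers fell in Cd mice. Slco1b2, an organic anion transporter of the sinusoidal membrane, was 462, 556, 531 and 492 TPM in control mice 27 to 30 and 356, 308, 207 and 291 TPM in Cd mice 1, 2, 5 and 6. It was 379, 466, 523 and 408 TPM in Cd+Se mice 13 to 16 and 416, 520, 482 and 516 TPM in Se mice 39, 40, 41 and 44. All Cd mice lay below all mice of the other groups, and the Cd+Se mice overlapped with control and Se mice. The log2 fold change was -0.83 (SE 0.15, limma adjusted p = 0.00116) in Cd against control and 0.63 (SE 0.15, limma adjusted p = 0.0155) in Cd+Se against Cd. Against control, Cd+Se mice gave -0.21 (SE 0.15, limma adjusted p = 0.674).

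Slc10a1, the sodium-dependent carrier that takes up most conjugated bile acids, was 399, 395, 457 and 344 TPM in control mice 27 to 30 and 310, 283, 184 and 245 TPM in Cd mice 1, 2, 5 and 6. It was 304, 361, 303 and 289 TPM in Cd+Se mice 13 to 16 and 408, 344, 333 and 338 TPM in Se mice 39, 40, 41 and 44. The Cd and control mice did not overlap, whereas Cd+Se mice overlapped with both. Slc10a1 fell by 0.66 on the log2 scale in Cd against control (SE 0.15, limma adjusted p = 0.00387). Its change in Cd+Se against Cd was 0.32, with a 95% interval from 0.01 to 0.63 (limma adjusted p = 0.141). After centring, the 2 carriers still passed in Cd against control, with log2 fold changes of -0.61 for Slco1b2 and -0.44 for Slc10a1.

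The export pumps did not fall with the uptake carriers. Abcb11, the canalicular bile salt pump, was 128, 126, 117 and 121 TPM in control mice 27 to 30 and 205, 188, 142 and 136 TPM in Cd mice 1, 2, 5 and 6. It was 81.7, 143, 78.7 and 130 TPM in Cd+Se mice 13 to 16 and 134, 173, 113 and 173 TPM in Se mice 39, 40, 41 and 44. All Cd mice lay above all control mice, and the Cd+Se mice fell into a low pair (13 and 15) and a high pair (14 and 16). Against control, the log2 fold change was 0.43 in Cd mice (SE 0.20, limma adjusted p = 0.118), and 0.65 after centring (limma adjusted p = 0.00729). From Cd to Cd+Se mice Abcb11 fell by 0.65 (SE 0.20, limma adjusted p = 0.038), a call that was lost without Cd mouse 1, 2 or 5 or Cd+Se mouse 13 or 15 (highest limma adjusted p = 0.101).

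Abcc2, the canalicular exporter of conjugated organic anions, was 153, 205, 208 and 194 TPM in control mice 27 to 30 and 277, 273, 212 and 222 TPM in Cd mice 1, 2, 5 and 6. It was 228, 220, 255 and 229 TPM in Cd+Se mice 13 to 16 and 151, 229, 207 and 197 TPM in Se mice 39, 40, 41 and 44. All Cd mice and all Cd+Se mice lay above all control mice. Against control mice it differed by 0.37 on the log2 scale in Cd mice (SE 0.14, limma adjusted p = 0.0556) and by 0.30 in Cd+Se mice (SE 0.14, limma adjusted p = 0.453). After centring, Cd against control gave 0.59 (limma adjusted p = 0.00112). Cd+Se and Cd mice differed by -0.07, with a 95% interval from -0.37 to 0.23 (limma adjusted p = 0.757).

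Slc10a1 over Abcb11, uptake over export, had a log2 ratio of 1.68 ± 0.19 in control, 0.60 ± 0.19 in Cd, 1.57 ± 0.40 in Cd+Se and 1.28 ± 0.35 in Se mice (SD, n = 4). Cd mice differed from control mice by -1.08 and Cd+Se mice from Cd mice by 0.97, without overlap (each exact permutation p = 0.0286, adjusted 0.0476). That adjusted value also rests on the ratios with Cyp7a1, which make up most of the tests at the lowest possible p. The ratio itself was 2.83 to 3.88 in control mice and 1.29 to 1.79 in Cd mice. Between Cd+Se and control the difference was -0.11 (exact permutation p = 0.6). Within the SeMet diet, Cd+Se against Se gave 0.30 (exact permutation p = 0.343), and Se against control gave -0.41 (exact permutation p = 0.143).

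Nr0b2, which encodes the repressor SHP, was the least abundant of the 10 genes in control mice and fell from Cd to Cd+Se mice. It was 11.6, 10.1, 16.3 and 20.0 TPM in control mice 27 to 30 and 25.6, 18.7, 18.2 and 26.0 TPM in Cd mice 1, 2, 5 and 6. It was 10.6, 10.3, 17.9 and 10.6 TPM in Cd+Se mice 13 to 16 and 7.02, 5.29, 8.23 and 8.84 TPM in Se mice 39, 40, 41 and 44. The Cd mice lay above all Cd+Se and Se mice, but control mouse 30 lay above Cd mice 2 and 5, and all Se mice lay below all control mice.

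The log2 fold change of Nr0b2 was 0.60 in Cd against control (SE 0.22, limma adjusted p = 0.0477). That call was lost without control mouse 27, 28 or 29 or Cd mouse 1, 5 or 6 (highest limma adjusted p = 0.152), and it held under 7 of 17 alternatives. From Cd to Cd+Se mice Nr0b2 fell by 0.81 (SE 0.22, limma adjusted p = 0.0243), a call lost without Cd mouse 6 or Cd+Se mouse 14 or 16 (highest limma adjusted p = 0.0714). Se against control gave -0.87 (SE 0.22, limma adjusted p = 0.77), and Cd+Se against Se gave 0.66 (SE 0.22, limma adjusted p = 0.233), in which the groups did not overlap.

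Cyp7a1 and Nr0b2 differed in opposite directions in each of these 4 comparisons, but not in Cd+Se against control, where both log2 fold changes were below 0 (-0.99 and -0.21). Over the 16 libraries the Pearson correlation of their log2(TPM + 1) values was -0.783. The libraries share their groups, and over deviations from the group means the correlation was -0.296. The 4 Se mice held the lowest Nr0b2 levels and the 4 Cd mice the lowest Cyp7a1 levels.

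**Figure D4:**
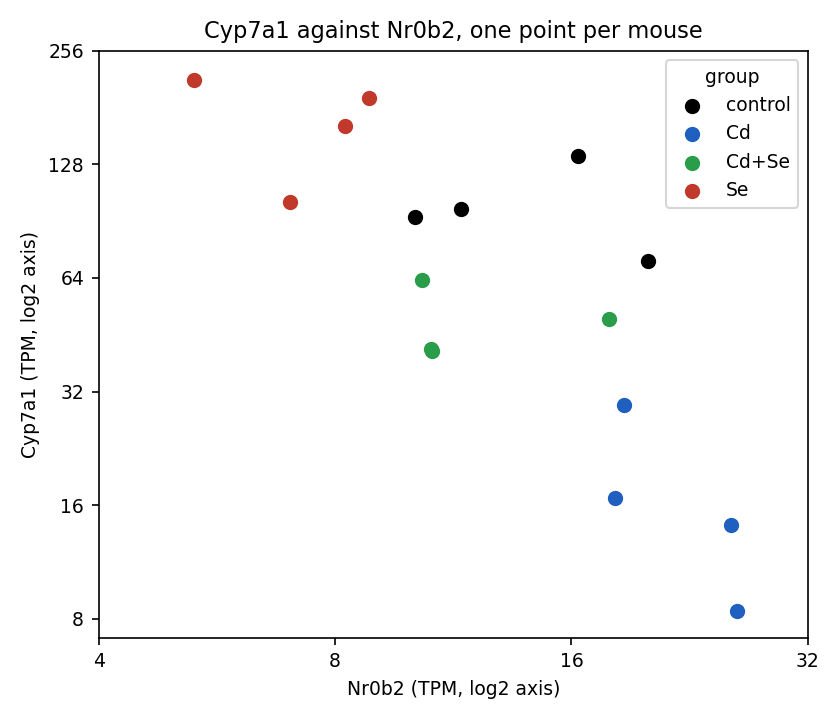
Cyp7a1 (y axis, TPM, log2 axis) against Nr0b2 (x axis, TPM, log2 axis), one point per mouse, coloured by group. The Cd mice lie at the lower right, at 8.37 to 29.4 TPM of Cyp7a1 and 18.2 to 26.0 TPM of Nr0b2, and the Se mice at the upper left.

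The test of whether the change with Cd differed between the diets passed for none of the 10 genes. The interaction was -0.90 for Abcb11 (SE 0.28, limma adjusted p = 0.105), 0.71 for Slco1b2 (SE 0.21, limma adjusted p = 0.0957) and 0.48 for Slc10a1 (SE 0.21, limma adjusted p = 0.198). For the fourth transporter, Abcc2, it was -0.11, with a 95% interval from -0.53 to 0.31 (limma adjusted p = 0.785). For Cyp7a1 it was 0.83, with a 95% interval from -0.08 to 1.74 (limma adjusted p = 0.277), and for Cyp8b1 -0.67, with an interval from -1.74 to 0.41 (limma adjusted p = 0.467). Cyp7b1, Cyp27a1, Baat and Nr0b2 gave 0.075, -0.036, 0.047 and 0.061 (limma adjusted p between 0.902 and 0.954). Abcb11 passed after centring (limma adjusted p = 0.0171) and, with Slco1b2, after quantile normalization. The number of all genes whose interaction passed rose under these scalings too, from 122 to 731 and 524 of 11766.

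In the comparisons with Se or control mice not yet given, none of the values passed. Against control, Se mice gave log2 fold changes of 0.32 for Cyp7b1, 0.20 for Cyp27a1, 0.18 for Baat, 0.25 for Abcb11 and 0.040 for Abcc2, and of -0.16 for Slc10a1 and -0.079 for Slco1b2 (limma adjusted p = 1 for each). Cd+Se mice, against control, gave 0.92 for Cyp8b1, 0.62 for Cyp7b1, 0.27 for Cyp27a1 and 0.013 for Baat, and -0.34 for Slc10a1 and -0.23 for Abcb11 (limma adjusted p between 0.348 and 0.988). Against Se mice, Cd+Se mice gave 0.30 for Cyp7b1, 0.066 for Cyp27a1 and 0.26 for Abcc2 (limma adjusted p between 0.532 and 0.941). They gave -0.23 for Cyp8b1, -0.17 for Baat, -0.18 for Slc10a1, -0.13 for Slco1b2 and -0.48 for Abcb11 (limma adjusted p between 0.388 and 0.885).

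Of 47 other genes of bile acid pathways, 40 were tested. In Cd against control 0 rose and 17 fell (42.5%, against 30.8% of all genes), with a median log2 fold change of -0.38. After centring, where 34.5% of all genes passed, 10 fell and 3 rose (Hsd3b7, Abcc3 and Fgfr4, which had not passed before centring). Between Cd+Se and Cd mice 7 rose and 1 fell (20%, against 15.9% of all genes), and 4 rose without Cd mouse 5 or Cd+Se mouse 14, where 6.52% and 6.05% of all genes passed. With only the Cd and Cd+Se libraries in the model 1 rose, Ppara, against 0.561% of all genes. None of the 40 passed in the other 3 comparisons of groups.

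Of 11 regulators tested, 6 fell in Cd mice, where 30.8% of all genes passed. The same 6 passed whichever Cd or control mouse was left out, while Nr1h3 did not pass after centring. From Cd to Cd+Se mice 5 of the 6 rose (15.9% of all genes passed), also after centring (18.8% of all genes). Of these, Hnf4a did not pass without Cd mouse 5 or Cd+Se mouse 14 or 15. Nr1h4, the bile acid receptor FXR, was 119 ± 13.4 TPM in control, 65.0 ± 8.3 TPM in Cd, 102 ± 18.8 TPM in Cd+Se and 122 ± 12.1 TPM in Se mice (SD, n = 4). All Cd mice, at 53.0 to 71.8 TPM, lay below all other mice, and Nr1h4 fell by 0.86 (SE 0.14, limma adjusted p = 0.000718) in Cd against control. Rxra, the partner with which FXR binds DNA, fell by 1.05 (SE 0.11, limma adjusted p = 5.01e-05). Ppara, a fatty acid receptor, fell by 1.15 (SE 0.18, limma adjusted p = 0.000479) and Hnf4a, a hepatocyte transcription factor, fell by 0.81 (SE 0.16, limma adjusted p = 0.00174).

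From Cd to Cd+Se mice the log2 fold changes of these 4 regulators were 0.63 for Nr1h4, 0.72 for Rxra, 0.90 for Ppara and 0.58 for Hnf4a (limma adjusted p between 0.00383 and 0.0239). Klb, the co-receptor through which the gut hormone Fgf15 reaches hepatocytes, was 9.31 ± 1.94 TPM in control, 5.17 ± 1.67 TPM in Cd and 10.6 ± 2.41 TPM in Cd+Se mice (SD, n = 4). Its log2 fold change was -0.76 (SE 0.21, limma adjusted p = 0.0119) in Cd against control and 0.93 (SE 0.21, limma adjusted p = 0.0128) in Cd+Se against Cd. Fgfr4, the receptor that Klb serves, gave 0.25 (SE 0.20, limma adjusted p = 0.356) in Cd against control. The sixth to fall was Nr1h3, an oxysterol receptor, and Rxra was the 1 gene of the 40 whose interaction passed, at 0.87 (SE 0.16, limma adjusted p = 0.029).

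Of 16 other synthesis genes tested, 8 fell in Cd mice and none rose, where 30.8% of all genes passed. Scp2, a sterol carrier and thiolase of side-chain shortening, fell by 0.62 (SE 0.11, limma adjusted p = 0.00111) from 2199 ± 109 TPM in control to 1434 ± 180 TPM in Cd mice (SD, n = 4). Abcd3, the peroxisomal importer of bile acid precursors, fell by 0.73 and Hsd17b4, an enzyme of peroxisomal beta-oxidation, fell by 0.69 (limma adjusted p = 0.00132 and 0.00302). Acnat1, an acyltransferase related to Baat, fell by 0.84 (limma adjusted p = 0.00976). After centring, these 4 were the ones that still fell and 1 of the 16 rose, Hsd3b7, where 34.5% of all genes passed. From Cd to Cd+Se mice Scp2 rose by a log2 fold change of 0.39 (limma adjusted p = 0.0283), and Hsd3b7, an enzyme acting just after Cyp7a1, fell by 0.43 (limma adjusted p = 0.0179). The call of Scp2 was lost after centring and without Cd mouse 5 or Cd+Se mouse 14, 15 or 16, and that of Hsd3b7 without Cd+Se mouse 14.

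Among 5 other uptake carriers, Slco2b1 fell in Cd mice by 0.87 (SE 0.15, limma adjusted p = 0.00099) and rose from Cd to Cd+Se mice by 0.58 (SE 0.15, limma adjusted p = 0.0216), a call lost without Cd mouse 5 or Cd+Se mouse 14. Among 7 other canalicular carriers, Abcb4, the phospholipid flippase, and Abcb1a, a multidrug pump, fell by 0.57 and 0.52 (limma adjusted p = 0.0465 and 0.0389), and neither passed after centring. Abcb4 was 60.6 ± 4.92 TPM in control and 40.8 ± 6.69 TPM in Cd mice (SD, n = 4). Abcb1a was close to the filter of 1 TPM, at 1.5 ± 0.237 and 0.753 ± 0.257 TPM, where the 1 TPM added understates a change. Abcb4 did not pass when any 1 of the 8 Cd and control mice was left out, and, in the same fits, Abcb1a passed only without control mouse 30 or Cd mouse 1. Abcc3, which returns bile acids and other anions to blood, gave 0.26 (SE 0.20, limma adjusted p = 0.346) in Cd against control. Abcc4, another basolateral exporter, stayed between 0.29 and 0.80 TPM in control and Cd mice and was not tested. Slc51a, a subunit of the basolateral bile acid exporter, was also too low to be tested, at 0.17 to 0.27 TPM in control, 0.62 to 2.23 TPM in Cd, 0.20 to 0.64 TPM in Cd+Se and 0.13 to 0.46 TPM in Se mice. The Cd and control mice did not overlap in Slc51a. Slc51b, the other subunit, spanned 0 to 0.79 TPM in control and 0.43 to 1.29 TPM in Cd mice.

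**Figure D5:**
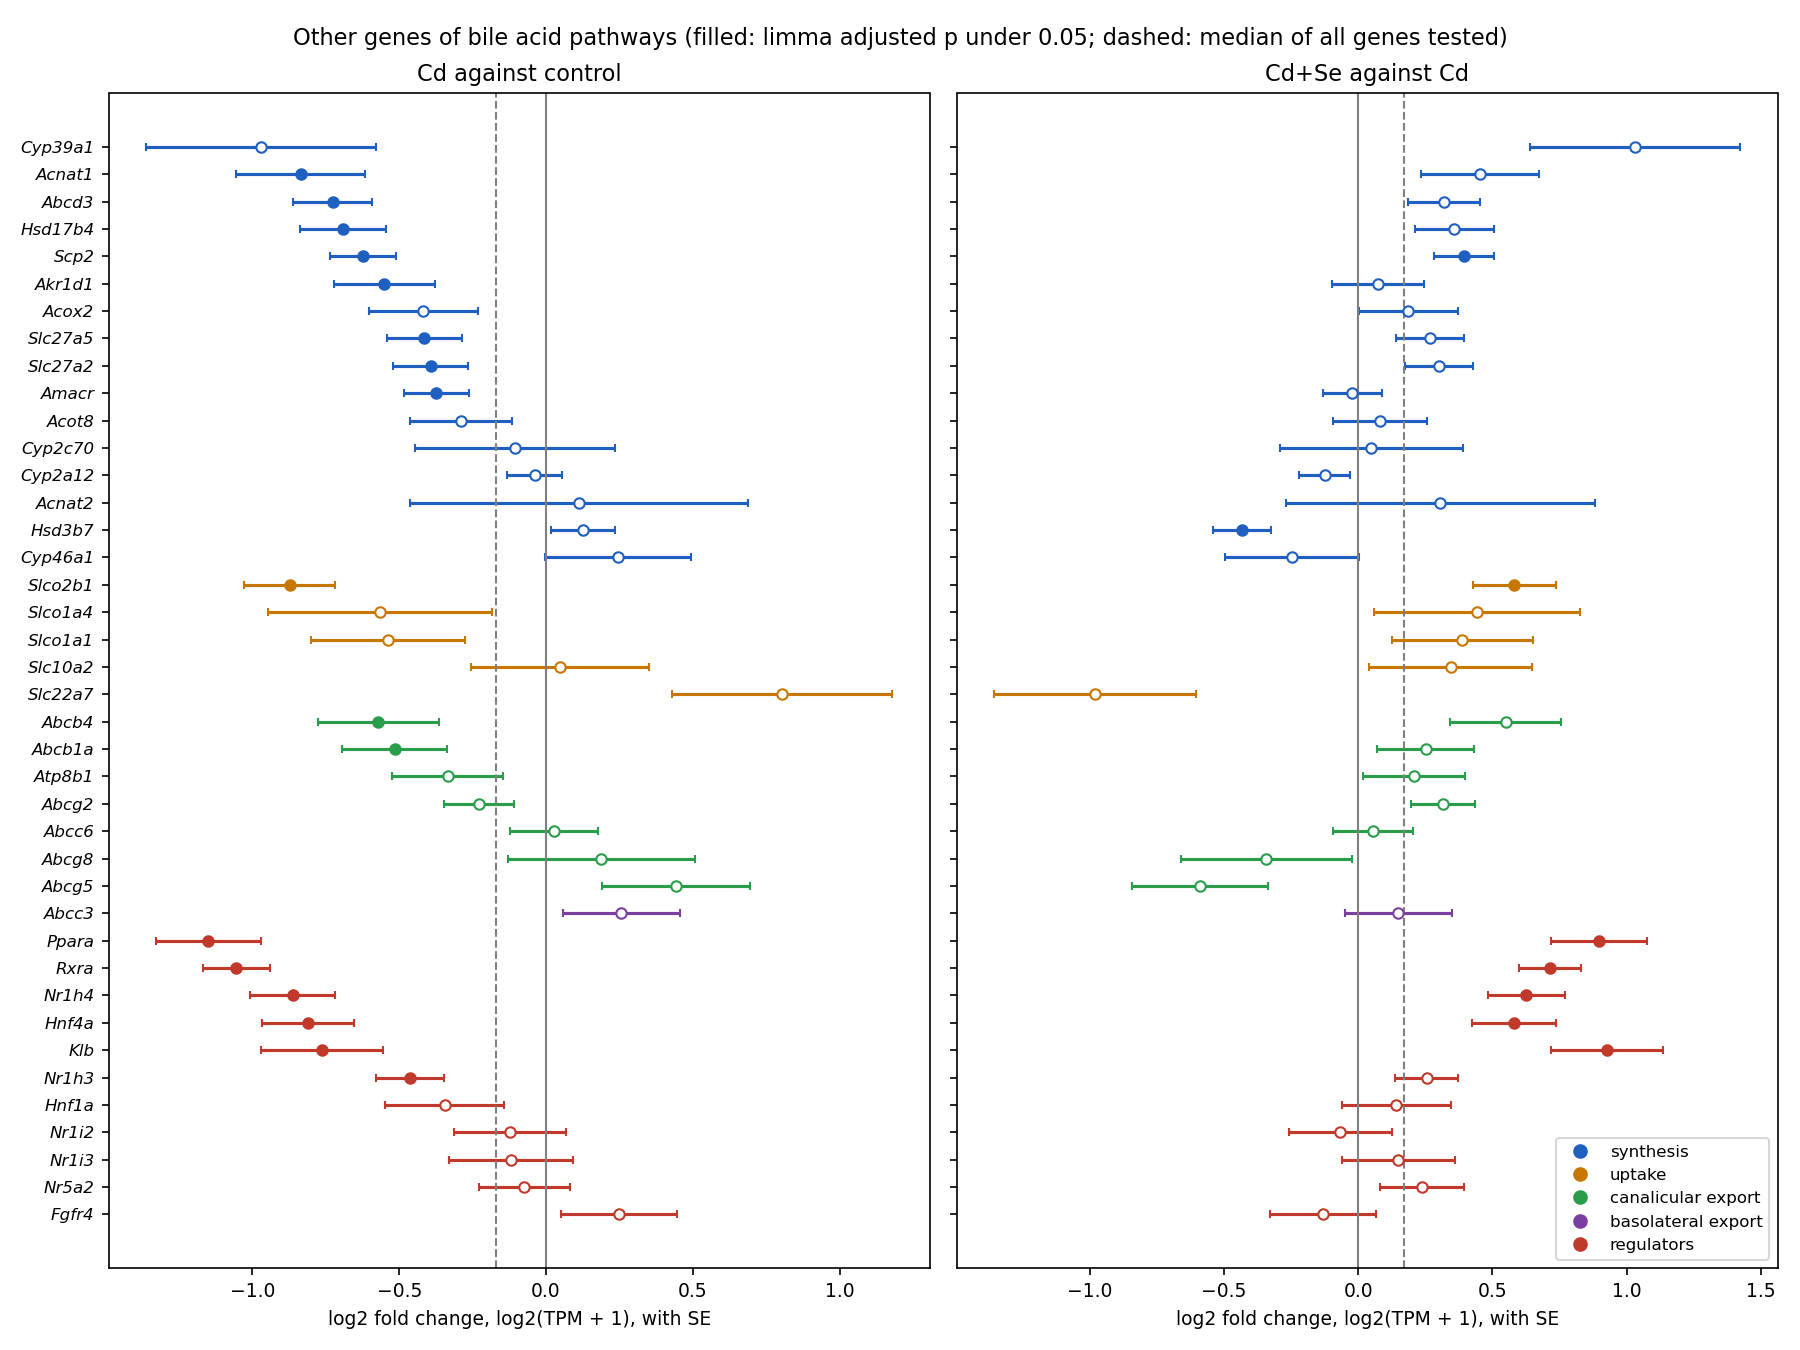
Log2 fold change with SE (x axis, log2(TPM + 1) scale) of the 40 other genes tested (y axis), coloured by list, in Cd against control (left) and Cd+Se against Cd (right). Filled points passed a limma adjusted p of 0.05, and the dashed line is the median of all genes tested, at -0.17 on the left and 0.17 on the right. All 17 filled points on the left lie below 0.

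Markers of other cells and states were also tested in Cd against control, where 30.8% of all genes passed. All 7 Kupffer cell markers fell, and their summed level was 134 to 167 TPM in control and 46.3 to 71.0 TPM in Cd mice. Of 8 neutrophil markers 3 were tested, S100a8, S100a9 and Retnlg, and all 3 rose. The sum of the 8 was 5.98 to 16.2 TPM in control and 32.6 to 41.5 TPM in Cd mice. Most of that sum was S100a8 and S100a9, at 12.6 ± 2.66 and 21.2 ± 1.37 TPM in Cd mice (SD, n = 4). Retnlg, with means of 0.223 TPM in control and 0.365 TPM in Se mice, reached the tested level only through the Cd-injected groups. Ly6g had means of 0.02 TPM in control and 0.04 TPM in Cd mice. In Cd+Se mice the sums were 42.2 to 86.9 TPM for Kupffer cells and 45.1 to 74.2 TPM for neutrophils, and none of these markers passed against Cd mice. Of 10 acute phase genes 5 rose, Saa2, Saa3, Lcn2, Hp and Itih4, and 8 of the 10 log2 fold changes were above 0. Hamp, of the same list, did not pass but was lower without overlap, at 4953 to 5832 TPM in control and 1719 to 3242 TPM in Cd mice. Of 8 hepatocyte markers 1 fell, Cps1, by 1.36 (limma adjusted p = 0.000169), and the median of the 8 was 0.03. Cholangiocyte markers, of which 1 of 7 reached the tested level, summed to 31.3 to 50.1 TPM in control and 29.1 to 52.0 TPM in Cd mice. Of 9 pericentral markers 2 passed, with Slc1a2 lower and Rhbg higher, and of 8 periportal markers 1 passed, Cyp2f2, which fell. The summed pericentral level was 5275 to 5919 TPM in control and 4256 to 5030 TPM in Cd mice. Most of that sum was Cyp2e1, which did not pass, at 4417 ± 320 TPM in control and 3424 ± 360 TPM in Cd mice (SD, n = 4). The periportal sum overlapped, at 3466 to 4339 TPM in control and 3423 to 4166 TPM in Cd mice. Of 6 monocyte markers 2 were tested, Ccr2 and Ly6c2, and both rose. Their means were 0.727 and 0.547 TPM in control, 0.463 and 0.713 TPM in Se and 1.54 and 1.46 TPM in Cd mice. They reached the tested level only through the Cd-injected groups, so the filter itself favoured markers that rise. Among other cells, 2 of 6 endothelial (Stab2 and Kdr) and 1 of 5 stellate markers (Reln) fell.

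Fewer markers passed in Cd+Se against Cd, where 15.9% of all genes passed. The hepatocyte markers Cps1 and Apob were higher in Cd+Se mice, by log2 fold changes of 0.87 and 0.42 (limma adjusted p = 0.00838 and 0.0462). The endothelial marker Lyve1 was higher by 1.09 (limma adjusted p = 0.0138), and the periportal marker Hal was lower, at -0.85 (limma adjusted p = 0.0355). None of the cholangiocyte, monocyte, stellate, pericentral or acute phase genes tested passed there.

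Cyp7a1 is known to follow the time of day, and clock genes were tested too. Of 10 clock genes tested 3 passed in Cd against control, where 30.8% of all genes passed. Nr1d1 rose by a log2 fold change of 1.63 (limma adjusted p = 0.00145) and Hlf fell by 1.24 (limma adjusted p = 0.00102), and Per2 fell by 0.41 (limma adjusted p = 0.0471). In Cd+Se against Cd 1 passed, where 15.9% of all genes passed. That gene was Nr1d1, which was lower, with a log2 fold change of -1.63 (limma adjusted p = 0.00635). Nr1d1 was 11.6 ± 3.8 TPM in control, 38.5 ± 14.4 TPM in Cd, 11.6 ± 4.0 TPM in Cd+Se and 7.15 ± 2.64 TPM in Se mice (SD, n = 4). Of the 10 log2 fold changes, 5 were above 0 in Cd against control and 5 in Cd+Se against Cd. The hour of collection is not given in the sources used here. The part of these cells and states in the results of the 10 genes was not tested.

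Genes with the most similar levels were found by Pearson correlation over the 16 libraries among 6947 protein-coding genes whose mean reached 5 TPM, as a description only, since the libraries share their groups. For Cyp7a1 they were Zfp367 (r = 0.926), Gpr155 (0.925) and Fitm2 (0.916). For Slco1b2 they were Coa5 (0.985), Crebl2 (0.977) and Zfp664 (0.977), and for Slc10a1 they were Cand1 (0.943), Nectin2 (0.938) and Sdha (0.931). Among pairs of the 10 genes, Slc10a1 and Slco1b2 were the most alike (r = 0.841, and 0.579 over deviations from the group means). For Nr0b2 the most similar gene, Mbl1, reached 0.815.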

How the data were processed

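Liver poly(A) RNA of 16 mice was sequenced on an Illumina platform, and the labels place 4 of them in each treatment group. The authors deposited 1 table of TPM values (transcript levels relative to the library's total), made before deposit with fastp, HISAT2 and StringTie according to the submitters' processing notes, which give no versions. Those notes name the human build GRCh38, whereas the gene identifiers are mouse Ensembl identifiers. The annotation is not given in the sources used here. Each column name matched 1 sample title, and 0 columns of sample values were unmapped. A number of reads per library cannot be recovered from TPM, so tests for counts were not used.

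Values were compared as log2(TPM + 1), which understates the change of low genes. A gene was tested if its mean over the 16 libraries reached 1 TPM, which 11766 genes did. Group means were fitted in limma 3.58.1 (R 4.3.3), using eBayes with its trend option. Adjusted p-values follow Benjamini and Hochberg over all genes tested, and 0.05 was the threshold. The study's methods name no test for the RNA-seq. Ratios within a library were compared by exact permutation in Python 3.11.15 with scipy 1.17.1. The labels name no batch, and whether mice of a group shared a cage or a day is not stated, so p-values measure the spread between these mice.

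The 10 genes and the lists of other pathway genes and markers were chosen with earlier results of these data known. Each of the 10 genes is named with its value in all 6 comparisons. Of each pathway list, up to 4 genes with the smallest adjusted p in Cd against control or Cd+Se against Cd are named, with Nr1h4, Fgfr4, Klb, Abcc3 and Abcc4 always, and the 3 genes most like some of the 10. Hsd3b7, Nr1h3, Slc51a, Slc51b and the marker genes named were picked with their values in view. Alternative settings changed the pseudocount (to 0.1), the filter (none, or a mean of 5 TPM), the scaling (quantiles, or median centring of libraries), the libraries fitted (only the groups compared, or without each mouse), the trend option (off), the genes (protein-coding) and the call (log2 fold change of at least 1 as well). Of the steps, only the limma fit was tested on simulated data. Gene positions are from GENCODE M21 (GRCm38) and start-site windows from RefSeq (GRCm38.p6).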

Additional observations from a re-analysis of the deposited data

Results flagged for a closer look

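In groups of 4 mice, the gap between the highest or lowest mouse and its nearest neighbour was set against the range of the group. Of 52 groups looked at, 2 had a mouse apart by Dixon's test at the 95% level, and chance flags about 1 in 20 groups, or 2.6 of 52. Se mouse 39 stood above the other Se mice in Slc10a1, at 408 TPM against 333 to 344 TPM, with a gap of 0.854 of the range. Cd+Se mouse 15 stood above the other Cd+Se mice in Nr0b2, at 17.9 TPM against 10.3 to 10.6 TPM, with a gap of 0.958 of the range. No explanation of either value was tested.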

How the results depend on the processing

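Cyp7a1 passed in Cd against control under all 17 alternatives run, with log2 fold changes of -2.84 to -2.28 when 1 mouse was left out. Slc10a1 and Slco1b2 passed there under 16 of 17, all but a required log2 fold change of at least 1, whereas Nr0b2 passed under 7 of 17. For Cd+Se against Cd, 2 of the 10 genes passed with no filter on low values, 0 with only the groups compared and 1 with a log2 fold change of at least 1, which also left 1 in Cd against control. The interaction called 2 after quantile normalization and 1 after centring, where calls over all genes rose from 122 to 524 and 731. Leaving out 1 mouse gave 0 to 1 of the 10 in Cd+Se against Se. The cause of these differences was not tested.

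Changes of sign arose among small values that did not pass. Quantile normalization gave -0.0721 for the interaction of Nr0b2. Centring gave 0.0015 for Baat in Cd against control, -0.0287 for Cyp27a1 in Cd+Se against Cd, and interactions of -0.11 for Cyp7b1, -0.14 for Baat and -0.12 for Nr0b2. With 1 mouse left out, Baat in Cd+Se against control ranged from -0.0865 to 0.15 and Abcc2 in Se against control from -0.0596 to 0.16. In Cd+Se against Se the range was -0.0561 to 0.55 for Cyp7b1, -0.48 to 0.16 for Cyp8b1 and -0.0527 to 0.21 for Cyp27a1. The interactions ranged from -0.28 to 0.33 for Cyp7b1, -0.17 to 0.11 for Cyp27a1, -0.0516 to 0.18 for Baat and -0.12 to 0.21 for Nr0b2. The log2 ratio of Cyp7a1 over Cyp7b1 in Se against control ranged from -0.0711 to 0.89, and that of Slc10a1 over Abcb11 in Cd+Se against control from -0.23 to 0.0311. With 3 mice against 4 the exact test cannot go below p = 0.0571, so the ratios have no call without a mouse.

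No paired analysis was possible because the mouse numbers are not shared between groups. TPM give no depth, so precision rests on the number of mice.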
